A study of Mus musculus with 11 samples.

Results

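The comparison described here concerns cells in sections labelled as hippocampus, from mice that all receive immune checkpoint inhibitors (ICI). It asks how these cells differ between mice with and without a melanoma in the skin. The comparison sets 3 MELANOMA ICI sections against 3 CONTROL ICI sections, from a series of 11 sections imaged by MERFISH. A segmented object was kept as a cell if it held 10 or more assigned transcripts and measured 100 µm3 or more. This gave 108550 of the 232117 cells of the series. MELANOMA ICI sections 1, 2 and 3 held 34722, 16194 and 20786 cells, and CONTROL ICI sections 1, 2 and 3 held 14436, 13547 and 8865. Labels and this filter define the members.

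All mice were adult male wild-type C57Bl/6 animals of 10 to 12 weeks. Both groups received anti-CTLA-4 (1 mg a dose, 3 doses a week) and anti-PD-1 (200 µg a dose, 2 doses a week) into the peritoneum. The labels tie a duration of 3 weeks to this regimen. MELANOMA ICI mice had also received 500000 syngeneic D4M-3A.UV2 melanoma cells in the skin of both sides, 1 week before treatment began. CONTROL ICI mice carried no tumour. The remaining 5 sections come from mice given isotype antibodies without a tumour (CONTROL, 3 sections) or with one (MELANOMA, 2 sections). Sections were 10 µm thick. No label ties a section to an animal, and the p-values below measure only the spread between sections.

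CTLA-4 and PD-1 are receptors that restrain T cells, and antibodies that block them release that restraint, on tumours and on healthy tissue alike. D4M-3A.UV2 is a mouse melanoma line that was exposed to ultraviolet light, which adds mutations that T cells can recognise. The hippocampus holds densely packed layers of transcript-rich neurons, the pyramidal and granule cell layers, between layers of fibres and scattered glia. MERFISH reads single RNA molecules in place through barcoded probes. DAPI stains DNA and marks nuclei, and a PolyT probe binds the tails of messenger RNA and marks the cytoplasm of cells with much of it. Each object has 1 transcript total in these tables, with no gene named. No cell type can therefore be named, and the tissue label could not be checked against marker genes.

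The leading digits of the object identifiers divide the series into 3 imaging runs. MELANOMA ICI 2 shared run 1 with CONTROL ICI 1 and 2, MELANOMA ICI 1 shared run 3 with CONTROL ICI 3, and MELANOMA ICI 3 was in run 2 with no CONTROL ICI section. Within-run values below therefore use 5 of the 6 sections. Assigned transcripts per section ran from 349960 (CONTROL ICI 3) to 1773374 (MELANOMA ICI 1), which makes counting error small beside the spread between sections. No object identifier was shared between sections. In run 3, 54.0% and 75.1% of objects passed the filter, against 11.7% to 26.5% in the other 4 sections. The imaged tissue also differed, from 6.18 mm2 of squares with a cell in CONTROL ICI 3 to 19.5 mm2 in MELANOMA ICI 1.

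**Figure D1:**
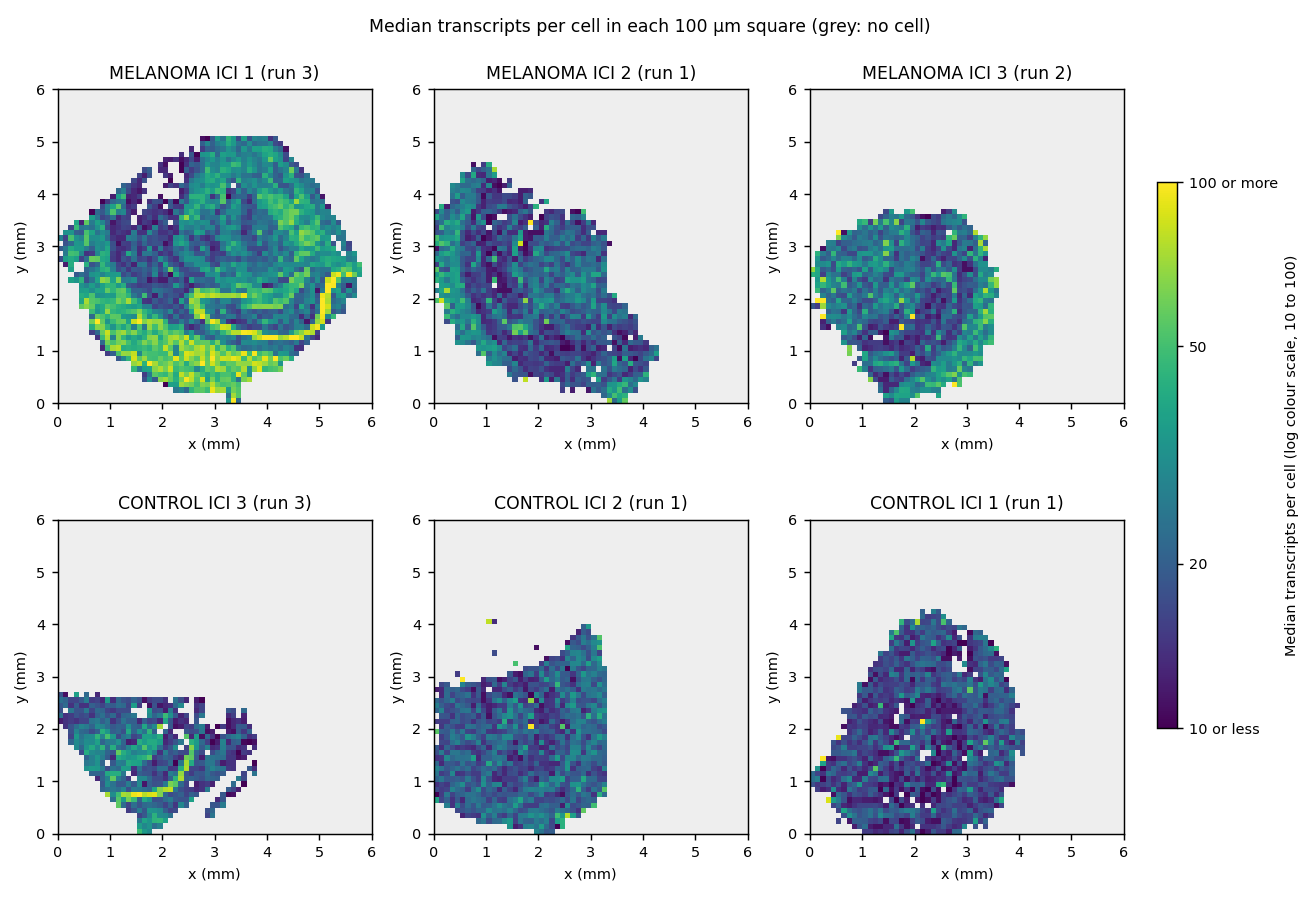
Maps of the 6 sections, with x and y in mm; each 100 µm square is coloured by the median transcripts per cell of the cells in it, on a log colour scale, and grey marks no cell. MELANOMA ICI 1 and CONTROL ICI 3, both of run 3, show a curved band of squares with high medians, CONTROL ICI 2 and CONTROL ICI 3 have straight edges, and the extent of tissue differs between sections.

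The maps of median transcripts per square show that the sections do not cover the same tissue. A curved, transcript-rich band is plain in MELANOMA ICI 1 and CONTROL ICI 3, and CONTROL ICI 2 and CONTROL ICI 3 are cut along straight lines. The labels do not give the anatomical level or the regions included. How much of any difference between groups comes from the part of the tissue imaged was not tested.

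Cells with many transcripts were more common in the MELANOMA ICI sections. The share of cells with at least 100 transcripts was 11.7%, 5.27% and 12.0% in MELANOMA ICI 1, 2 and 3. In CONTROL ICI 1, 2 and 3 it was 2.17%, 3.62% and 5.19%. Every MELANOMA ICI section lay above every CONTROL ICI section, although MELANOMA ICI 2 exceeded CONTROL ICI 3 only narrowly. The means were 9.66% ± 3.80 and 3.66% ± 1.51 (SD, n = 3 sections each), a 2.63-fold ratio of geometric means (exact two-sided permutation p = 0.1, the smallest that 20 arrangements allow). Over the 21 section measures compared in this way the Benjamini-Hochberg adjusted p was 0.21. Of these measures, 10 did not overlap between the groups, or 47.6%, and many of the 21 measure nearly the same thing, so the lack of overlap does not single this one out. Within runs the direction was the same, at 1.88-fold in run 1 and 2.26-fold in run 3. MELANOMA ICI 3 has no CONTROL ICI section in its run, and the isotype sections there, CONTROL 2 and MELANOMA 2, had 18.2% and 15.7%. With a lower bound of 50 transcripts the shares were 35.8%, 19.2% and 25.7% against 10.2%, 16.5% and 21.6%, and here MELANOMA ICI 2 fell between CONTROL ICI sections (p = 0.2 by exact permutation).

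At the middle of the distribution of transcripts per cell the groups overlapped. Medians were 35, 21 and 24 transcripts in MELANOMA ICI 1, 2 and 3 and 17, 20 and 26 in CONTROL ICI 1, 2 and 3. CONTROL ICI 3 lay above 2 of the MELANOMA ICI sections. The mean of the medians was 26.7 ± 7.37 against 21 ± 4.58 transcripts (SD, n = 3 each), a difference of 0.33 on the log2 scale or 1.26-fold (exact permutation p = 0.4, adjusted over the 6 quantities 0.6). Within runs it was 1.14-fold in run 1 and 1.35-fold in run 3 (mean 1.24-fold, p = 0.333 by exact permutation within runs, where the smallest possible is 0.167).

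In the upper part of the distribution the values of kept cells lay further apart. The 90th percentile was 106, 74 and 113 transcripts in MELANOMA ICI 1, 2 and 3 and 50, 65 and 74 in CONTROL ICI 1, 2 and 3, a 1.54-fold difference (p = 0.2 by exact permutation). Here MELANOMA ICI 2 and CONTROL ICI 3, imaged in different runs, had the same value. At the 95th percentile the values were 137, 102 and 167 against 70, 89 and 101, so that the groups were just apart (135 ± 32.5 against 86.7 ± 15.6 transcripts, SD, n = 3 each, 1.55-fold, exact permutation p = 0.1). Among the 114 values formed by 19 percentiles of 6 quantities, this was the only one at which the groups did not overlap, or 0.877%. Within runs the 95th percentile was 1.29-fold higher in run 1 and 1.36-fold higher in run 3.

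The spread of these differences over percentiles depends on the filter. At the 10th percentile all 6 sections held 10 to 13 transcripts, since the filter at 10 bounds the values from below. With the volume filter only, a setting without this bound, the median was 24, 3 and 7 transcripts in MELANOMA ICI 1, 2 and 3 and 3, 2 and 11 in CONTROL ICI 1, 2 and 3. The 90th percentile was 94, 25 and 51 against 16, 19 and 55. Groups overlapped at both. The difference was then 1.97-fold at the median, 1.94-fold at the 75th, 1.93-fold at the 90th and 1.94-fold at the 95th percentile (exact permutation p = 0.6, 0.5, 0.3 and 0.2). Without the filter on transcripts it was thus about as large at the median as above it. In run 3 it was larger at the median, at 2.18-fold, than at the 90th percentile, at 1.71-fold, and in run 1 it was 1.22-fold and 1.43-fold.

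The width of the distribution of kept cells, the 90th over the 10th percentile, largely repeats the 90th percentile, because the filter holds the 10th near 10. It was 8.15, 6.73 and 10.3 in MELANOMA ICI 1, 2 and 3 and 5.00, 5.91 and 6.17 in CONTROL ICI 1, 2 and 3. All MELANOMA ICI sections were wider, while in the widths of the other quantities the groups overlapped. In run 2 the isotype sections CONTROL 2 and MELANOMA 2 had widths of 12.8 and 11.3, above MELANOMA ICI 3. Between the groups the width of transcripts per cell differed by 1.46-fold, 0.54 in log2 (exact permutation p = 0.1, adjusted over the 6 quantities 0.6). Within runs it differed by 1.28-fold (p = 0.333 by exact permutation within runs). Without MELANOMA ICI 3, the widest of the 6 sections compared, it was 0.39 on the log2 scale.

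**Figure D2:**
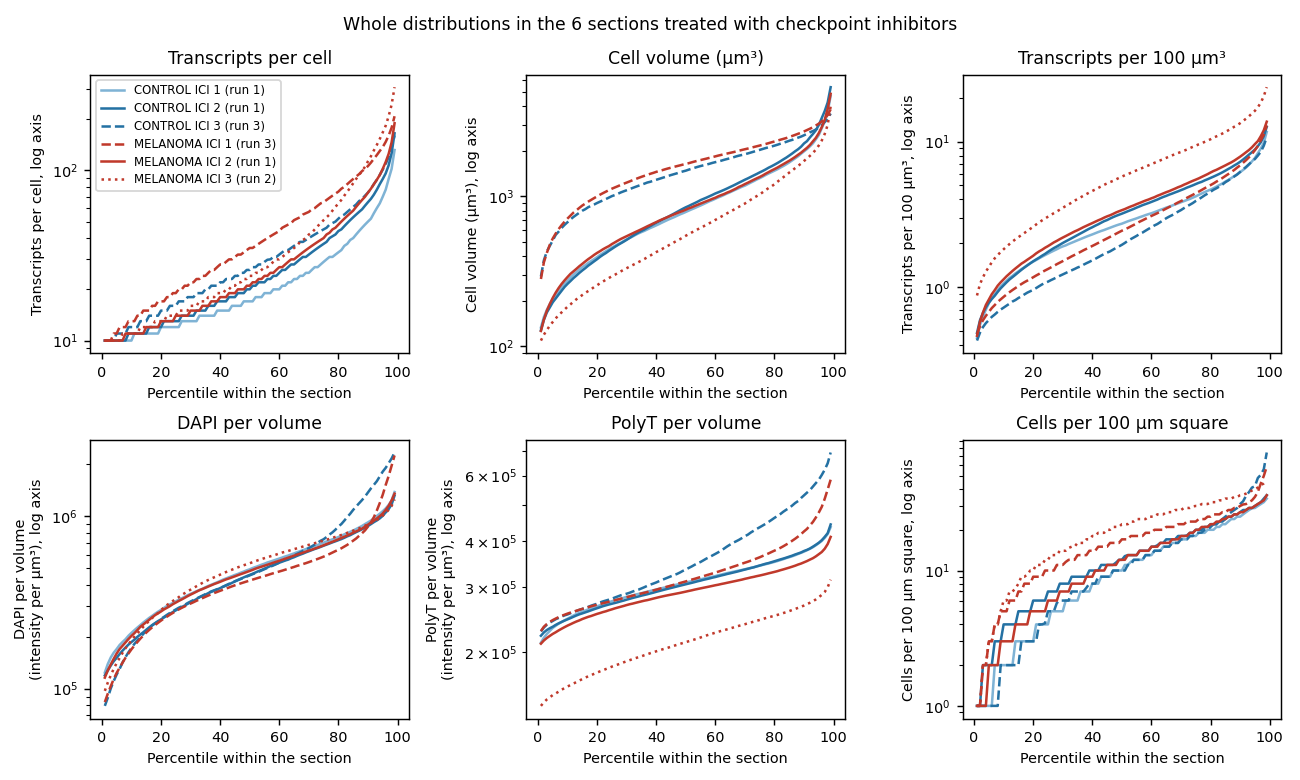
The 6 quantities at each percentile from 1 to 99 within a section, all on log axes, with 1 line per section (red MELANOMA ICI, blue CONTROL ICI; solid run 1, dotted run 2, dashed run 3). Transcripts per cell run from 10 to 13 at the 10th percentile, where the filter at 10 bounds them, to 70 to 167 at the 95th. The cell volumes of run 3 lie above those of the other sections from the 5th to the 90th percentile. At the 95th, CONTROL ICI 2 of run 1 (3004 µm3) lies above CONTROL ICI 3 of run 3 (2889 µm3).

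Pairs of sections from 1 run allow the curves to be compared without the difference between runs. At 19 percentiles from the 5th to the 95th, MELANOMA ICI 1 held more transcripts per cell than CONTROL ICI 3 at 18 and as many at 1. MELANOMA ICI 2 held more than CONTROL ICI 1 at 18 and more than CONTROL ICI 2 at 17, with the rest equal. At the median the difference was 1.35-fold for MELANOMA ICI 1 over CONTROL ICI 3, and at the 90th percentile 1.43-fold. For MELANOMA ICI 2 over CONTROL ICI 1 it was 1.24-fold and 1.48-fold. Over CONTROL ICI 2 the differences were smaller, at 1.05-fold and 1.14-fold. The Wasserstein distance, the mean shift needed to turn one distribution into the other, was 0.31 in log2 between MELANOMA ICI 2 and CONTROL ICI 1 and 0.085 between MELANOMA ICI 2 and CONTROL ICI 2. The 2 CONTROL ICI sections of run 1 lay 0.22 apart, farther from each other than CONTROL ICI 2 lay from MELANOMA ICI 2. MELANOMA ICI 1 and CONTROL ICI 3 lay 0.36 apart.

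**Figure D3:**
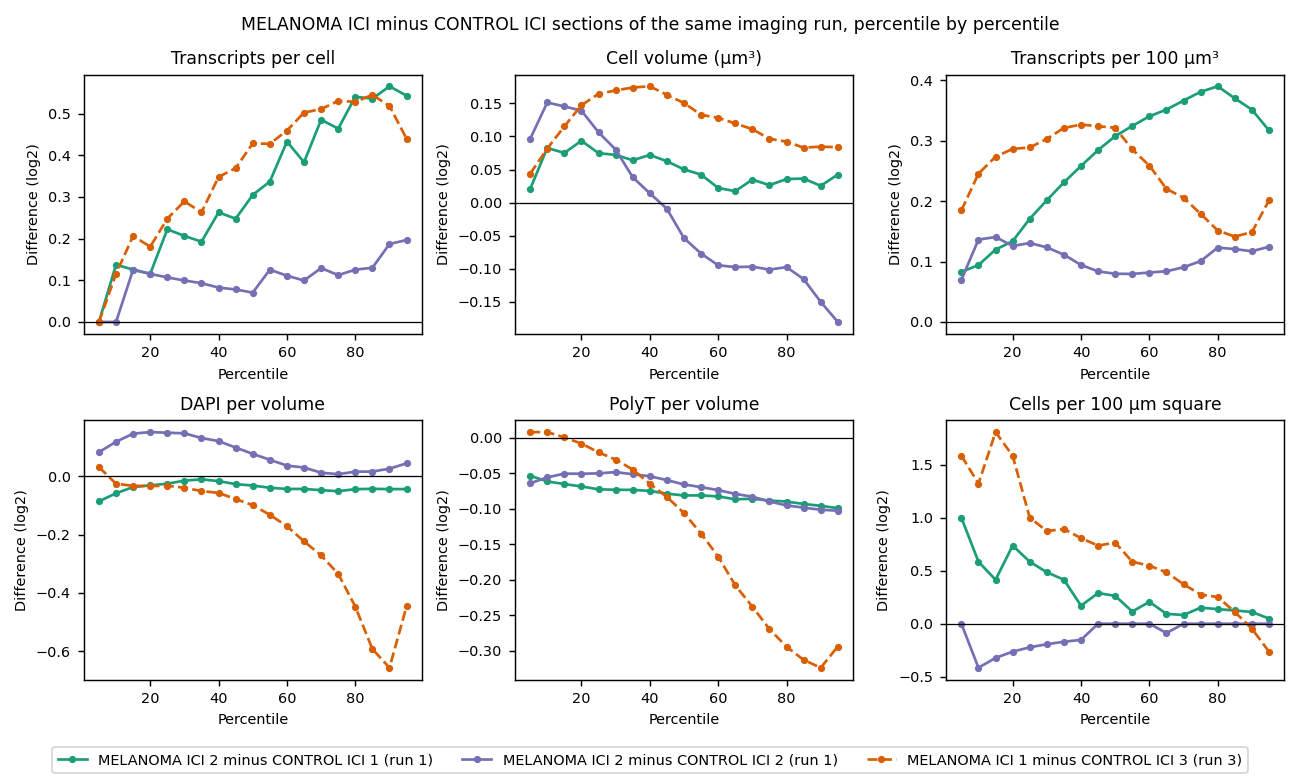
Difference between a MELANOMA ICI and a CONTROL ICI section of the same run (log2, y axis) at 19 percentiles (x axis) for 6 quantities, with 1 line per pair; MELANOMA ICI 2 enters 2 pairs. Transcripts per cell and transcripts per volume lie at or above 0 at every percentile shown in all 3 pairs, while the other 4 quantities cross 0 in at least 1 pair.

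Of 6 classes of cell volume, the gap in transcripts over all sections was widest at 1600 to 3200 µm3. There, median transcripts per cell were 42, 50 and 126.5 in MELANOMA ICI 1, 2 and 3. They were 35, 38 and 26 in CONTROL ICI 1, 2 and 3. All MELANOMA ICI sections were higher, and MELANOMA ICI 3 stood far above the rest. The means were 72.8 ± 46.6 against 33 ± 6.25 transcripts (SD, n = 3 each), a 1.97-fold ratio of geometric means (exact permutation p = 0.1, adjusted over 6 volume classes 0.24). Within runs it was 1.37-fold in run 1 and 1.62-fold in run 3. Without MELANOMA ICI 3 the difference dropped from 0.98 to 0.49 on the log2 scale, and without run 3 it was 1.12.

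Cells above 3200 µm3, which made up 1.74% to 4.43% of cells, gave 78, 51.5 and 136.5 transcripts in MELANOMA ICI 1, 2 and 3. In CONTROL ICI 1, 2 and 3 they gave 50, 46 and 39. The groups were again apart, but by only 1.07-fold in run 1 against 2.00-fold in run 3. These are 2 of 6 volume classes whose groups did not overlap, or 33.3%.

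Among smaller cells the values lie near the filter at 10 transcripts, with section medians of 12 to 15 at 100 to 200 µm3, which narrows any difference there. Between 100 and 1600 µm3 the 4 classes gave folds of 1.13 to 1.28, with overlapping groups in each (exact permutation p = 0.2 to 0.3). Within runs these classes gave 1.08-fold to 1.16-fold in run 1 and 1.04-fold to 1.12-fold in run 3. With the volume filter only, a setting chosen after seeing the data for these classes, the folds were 2.29, 2.03, 1.87, 2.76 and 2.13 in the 5 classes from 200 µm3 upwards, and groups were apart only at 1600 to 3200 µm3. The folds of small cells were then as large as that at 800 to 1600 µm3, but they rest on few transcripts. At 200 to 400 µm3 medians were 6, 2 and 6 in MELANOMA ICI 1, 2 and 3. They were 2, 1 and 3 in CONTROL ICI 1, 2 and 3 (exact permutation p = 0.3). At 100 to 200 µm3 no fold could be computed, as the CONTROL ICI 2 median was 0. With the 6 volume classes weighted equally, so that sections with large and with small cells count alike, the difference in median transcripts was 0.48 on the log2 scale against 0.33 without weighting (exact permutation p = 0.1 against 0.4). This weighting was chosen after seeing the data.

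Set beside the isotype sections of their own run, cells of 1600 to 3200 µm3 kept an order. In run 1 the CONTROL section had a median of 72 transcripts and the MELANOMA section 65, against 50 in MELANOMA ICI 2 and 35 and 38 in the CONTROL ICI sections. In run 3 the CONTROL section had 68, MELANOMA ICI 1 had 42 and CONTROL ICI 3 had 26. In both runs the MELANOMA ICI section thus lay between the isotype sections and the CONTROL ICI sections. Run 2 did not repeat that placing, with 145 in CONTROL, 94 in MELANOMA and 126.5 in MELANOMA ICI 3.

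**Figure D4:**
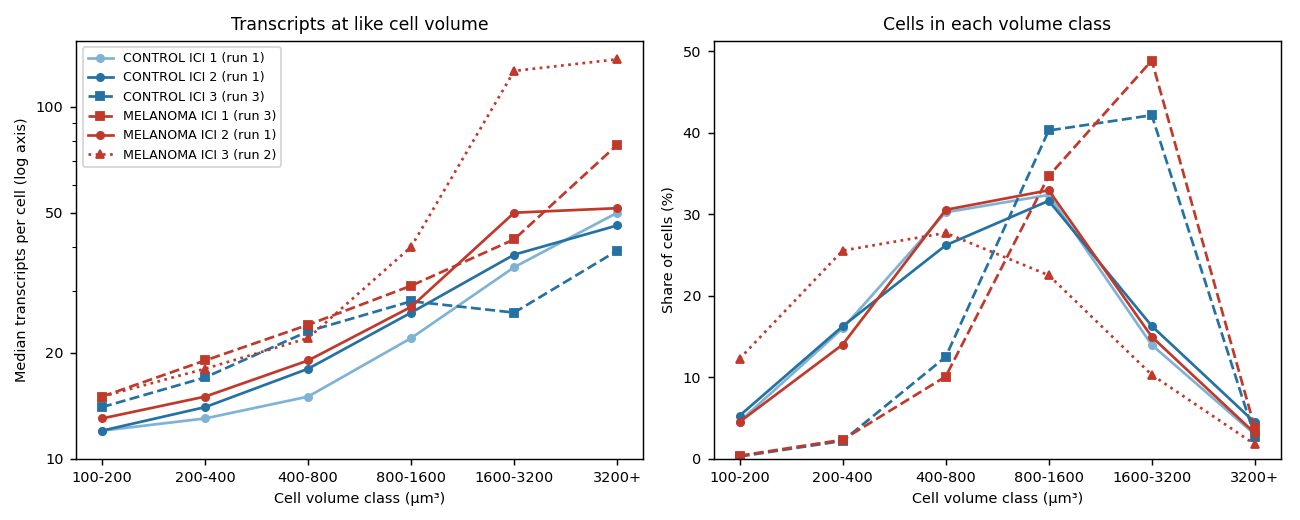
Left, median transcripts per cell (log axis) in 6 classes of cell volume; right, the percentage of a section's cells in each class; 1 line per section (red MELANOMA ICI, blue CONTROL ICI; circles run 1, triangles run 2, squares run 3). The left lines separate above 1600 µm3, where medians are 42 to 136.5 in MELANOMA ICI and 26 to 50 in CONTROL ICI over both classes, and the right lines follow the run.

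Cell volume was highest in both sections of run 3 and gave no common direction between the groups. Medians were 1650 and 1486 µm3 in MELANOMA ICI 1 and CONTROL ICI 3 of run 3. They were 815, 788 and 846 µm3 in MELANOMA ICI 2, CONTROL ICI 1 and CONTROL ICI 2 of run 1, and 546 µm3 in MELANOMA ICI 3 of run 2. The group means, 1004 ± 575 and 1040 ± 387 µm3 (SD, n = 3 each), differed by -0.14 in log2 (p = 0.9 by exact permutation, adjusted 0.9). Within runs the difference was 0.074, and it was 0.22 without MELANOMA ICI 3 and 0.14 without CONTROL ICI 3, so its direction depends on the sections used. By Wasserstein distance, the same-run pairs among these 6 sections lay 0.051 to 0.12 apart in log2 volume and pairs from different runs 0.47 to 1.43. MELANOMA ICI 3 had the smallest median volume of the series, and its run holds no CONTROL ICI section. The isotype sections of that run had medians of 735 µm3 (CONTROL 2) and 910 µm3 (MELANOMA 2), close to those of run 1.

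Transcripts per volume were also higher in MELANOMA ICI in each same-run pair. This quantity is not free of cell size. From class to class of volume, median transcripts of kept cells mostly rose by less than in proportion to volume. In MELANOMA ICI 3 they rose by more at 1 step, from 40 at 800 to 1600 µm3 to 126.5 at 1600 to 3200 µm3. The isotype sections of its run did so too at this step, from 43 to 145 in CONTROL 2 and from 33 to 94 in MELANOMA 2. In CONTROL 1 of run 1 the step was from 32 to 72. MELANOMA ICI 3 had the smallest cells and the highest transcripts per volume. Whether the 2 are linked was not tested. Medians were 2.44, 3.38 and 5.74 transcripts per 100 µm3 in MELANOMA ICI 1, 2 and 3, and 2.73, 3.20 and 1.95 in CONTROL ICI 1, 2 and 3. Across runs the groups overlapped, since MELANOMA ICI 1 lay below both CONTROL ICI sections of run 1. The means were 3.85 ± 1.70 and 2.63 ± 0.627 (SD, n = 3 each), a difference of 0.49 on the log2 scale or 1.41-fold (exact permutation p = 0.4, adjusted 0.6). Leaving out MELANOMA ICI 3 made it 0.16. Within runs it was 1.14-fold and 1.25-fold in runs 1 and 3, and in all 3 same-run pairs the MELANOMA ICI section was higher at 19 of 19 percentiles. The pair of MELANOMA ICI 1 and CONTROL ICI 3 differed most near the middle, by 1.25-fold at the median and 1.11-fold at the 90th percentile.

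Summed over tissue, transcripts were denser in the MELANOMA ICI sections. There were 83729, 57481 and 113129 transcripts per mm2 of squares with an object in MELANOMA ICI 1, 2 and 3. CONTROL ICI 1, 2 and 3 held 43676, 43167 and 42317, a narrow range on this area. The area includes squares that held objects but no cell. These made up 8.55%, 25.7% and 25.3% of squares in CONTROL ICI 1, 2 and 3. In MELANOMA ICI 1, 2 and 3 they made up 8.03%, 5.42% and 3.85%. How much of the difference in density comes from such squares was not tested. The lowest MELANOMA ICI section was above the highest CONTROL ICI section, and the difference was 0.92 on the log2 scale, or 1.90-fold (exact permutation p = 0.1, adjusted over 21 measures 0.21). In run 1 it was 1.32-fold and in run 3 1.98-fold. CONTROL ICI 2 held 288 nearly silent squares, 21.9% of its squares, where at least 10 objects gave under 10% of the transcripts of a median square. The other 5 sections held 2.03% to 3.62%. With such squares left out the values were 85407, 59055 and 115957 against 45271, 55031 and 43298, and the difference in run 1 was 1.18-fold. The 5 isotype sections held 67422 to 139101 per mm2, all above the 3 CONTROL ICI sections.

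DAPI per volume gave no common direction. Median intensities per µm3 were 424146, 481857 and 533821 in MELANOMA ICI 1, 2 and 3, and 492489, 456733 and 454309 in CONTROL ICI 1, 2 and 3. The groups overlapped and their log2 difference was 0.031 (p = 0.8 by exact permutation, adjusted 0.9), or -0.038 within runs. MELANOMA ICI 2 was lower than CONTROL ICI 1 at 19 of 19 percentiles and higher than CONTROL ICI 2 at 19 of 19.

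One section stood apart in the upper part of the DAPI distribution. The 90th percentile was 1374960 in CONTROL ICI 3 and 871713 to 922053 in the other 5 sections. Cells with at least 1000000 per µm3, the brightest by DAPI, made up 16.8% of cells there and 5.20% to 7.84% elsewhere. CONTROL ICI 3 is also the smallest section, with the fewest cells.

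Median PolyT per volume was lower in the MELANOMA ICI section in both runs that hold both groups, by a small amount. Median intensities per µm3 were 310746, 291625 and 213047 in MELANOMA ICI 1, 2 and 3, and 308561, 305270 and 334491 in CONTROL ICI 1, 2 and 3. MELANOMA ICI 3 was far below the rest, as were the other 2 sections of run 2, with medians of 215305 in CONTROL 2 and 210089 in MELANOMA 2. The overall log2 difference was -0.24 (p = 0.3 by exact permutation, adjusted 0.6), and -0.069 without MELANOMA ICI 3. Within runs the MELANOMA ICI sections had 0.950 and 0.929 times the median of CONTROL ICI sections in runs 1 and 3 (p = 0.167 by exact permutation within runs, the smallest possible). MELANOMA ICI 2 was lower than CONTROL ICI 1 and than CONTROL ICI 2 at 19 of 19 percentiles. It had 0.958 and 0.962 times their values at the 10th percentile and 0.936 and 0.932 times at the 90th. MELANOMA ICI 1 was lower than CONTROL ICI 3 at 16 of 19. There the gap differed more over the curve, at 0.799 times at the 90th percentile against 1.01 times at the 10th. Within runs, median PolyT and median transcripts per volume thus differed between the groups in opposite directions.

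Cells per 100 µm square were at least as many in MELANOMA ICI as in CONTROL ICI at the median, but runs 1 and 3 differed in size. Medians over squares with at least 1 cell were 17, 12 and 22 in MELANOMA ICI 1, 2 and 3, and 10, 12 and 10 in CONTROL ICI 1, 2 and 3. MELANOMA ICI 2 and CONTROL ICI 2 were equal. The means were 17 ± 5 and 10.7 ± 1.15 (SD, n = 3 each), a 1.55-fold difference (exact permutation p = 0.2, adjusted 0.6). It was 1.10-fold in run 1 and 1.70-fold in run 3. The share of squares with at least 20 cells was 39.6%, 25.5% and 55.2% against 21.7%, 25.4% and 23.0%, so that the groups did not overlap but MELANOMA ICI 2 and CONTROL ICI 2 were nearly equal. Since a cell needs 10 transcripts, more transcripts per object also give more cells. With the volume filter only, the difference in the median per square dropped from 0.63 to 0.024 on the log2 scale (exact permutation p = 1). Counted over all objects, whatever their transcripts, density was 2184, 8781 and 7732 objects per mm2 against 9184, 8757 and 1985 (0.976-fold, exact permutation p = 0.9).

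The difference in transcripts per cell was larger in crowded squares in run 1, and less regularly so in run 3. In squares of 1 to 4 cells, MELANOMA ICI over CONTROL ICI was 0.972-fold in run 1 and 1.06-fold in run 3. Medians there were 14 to 17 transcripts in run 1, near the filter at 10, which narrows any difference. The classes also count only cells that passed this filter. How much of the rise with crowding comes from the filter was not tested. In squares of 10 to 19 cells it was 1.11-fold and 1.24-fold, and in squares of 20 to 29 cells 1.20-fold and 1.44-fold. In squares of at least 30 cells it was 1.34-fold and 1.25-fold. Groups overlapped in all 5 classes of crowding (exact permutation p = 0.4 to 0.5). In MELANOMA ICI 1, 2 and 3, medians in squares of at least 30 cells were 50, 28 and 28 transcripts, and in CONTROL ICI 1, 2 and 3 they were 19, 23 and 40.

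**Figure D5:**
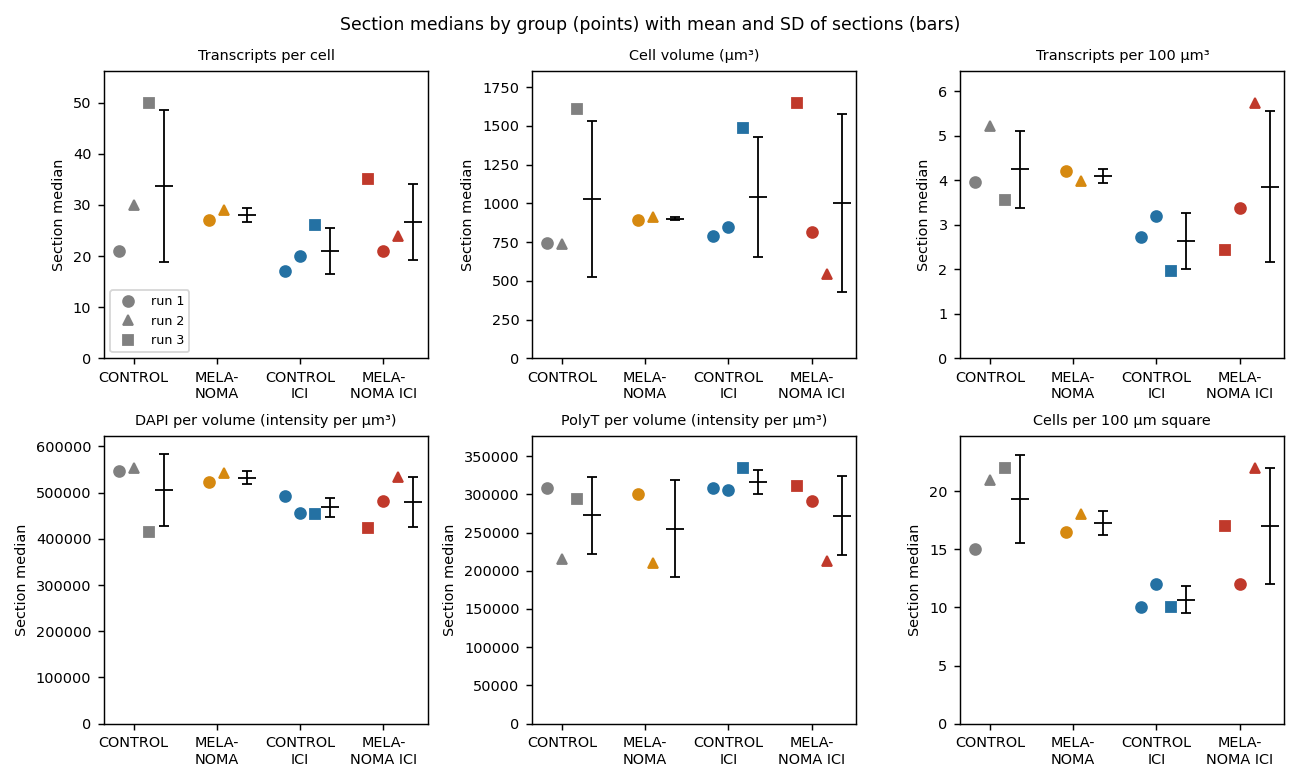
Section medians of the 6 quantities (y axes from 0; points, 1 per section, shaped by imaging run) in the 4 groups of the series, with the mean and SD over sections beside them. In CONTROL ICI and MELANOMA ICI, median cells per square are 10 to 12 and 12 to 22 and meet at 12, while the medians of the other 5 quantities overlap.

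The melanoma effect under inhibitors was also set against that under isotype antibodies (MELANOMA against CONTROL). On the log2 scale the tumour effect on median transcripts per cell was 0.33 with inhibitors and -0.17 with isotype antibodies. The difference between these effects was 0.51 (exact permutation of tumour labels within treatments, p = 0.365, adjusted over 6 quantities 0.73). The null of this permutation, here and below, is no tumour effect in either treatment. A low p would therefore not by itself show that the effects differ. Within runs the effects were 0.31 and 0.16, so that the isotype effect turned sign and the difference was 0.15 (exact permutation p = 0.583). For transcripts per volume the effects were 0.49 and -0.035 (difference 0.53, exact permutation p = 0.295), and within runs the difference was 0.41 (exact permutation p = 0.208). For cells per square they were 0.63 and -0.15, the largest difference of the 6 at 0.78 (exact permutation p = 0.07, adjusted 0.42). Within runs this was 0.49 (p = 0.333 by exact permutation). Leaving out 1 section gave 0.57 to 1.01 for cells per square. Unadjusted p fell below 0.05 without CONTROL 1 (0.95, exact permutation p = 0.0333) and without MELANOMA ICI 2 (1.01, exact permutation p = 0.04). Over the 6 quantities, results with 1 section left out kept the direction in 54 cases, turned sign in 10 and came out stronger in 2. With no filter on transcripts the difference for cells per square turned to -0.12. For volume, DAPI and PolyT the differences were -0.057, -0.056 and -0.14 (exact permutation p = 0.98, 0.83 and 0.73). Within runs they were -0.21, 0.010 and -0.053. None of the 6 tests passed 0.05 after adjustment, so no effect here is shown to be particular to mice on inhibitors.

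Relative to the CONTROL section of the same run, the rich cells of both groups were poorer in transcripts. The 90th percentile of transcripts per cell was 0.741, 0.925 and 0.734 times that of CONTROL in MELANOMA ICI 1, 2 and 3. In CONTROL ICI 1, 2 and 3 it was 0.625, 0.812 and 0.517 times. All 6 sections lay below their CONTROL section. In runs 1 and 3 each CONTROL ICI section lay further below than the MELANOMA ICI section of its run. Across runs the groups overlapped, since CONTROL ICI 2 lay above MELANOMA ICI 1 and 3. On this scale the groups differed by 0.31 in log2 at the 90th percentile (exact permutation p = 0.3) and by 0.16 at the median (exact permutation p = 0.7), less than without CONTROL as the base.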

How the data were processed

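Cell metadata tables of 11 MERFISH sections, 1 per section with 17 columns, were used as deposited. Transcript totals are raw counts per object that the authors deposited, with no normalization stated per the file headers. DAPI and PolyT are intensity values summed over each object in the authors' raw columns, in arbitrary units. Volume and position are other deposited measures without a stated unit, read here as µm3 and µm. How objects were segmented, and which probes were used, is not given in the sources used here.

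Objects of at least 100 µm3 with at least 10 transcripts were kept, and each section gave 1 value per measure. Cells were never replicates. Group means of log2 section values were compared by exact permutation of sections, two-sided (20 arrangements, smallest p 0.1; 6 within runs, smallest 0.167; 200 for the difference of effects, smallest 0.005), with Benjamini-Hochberg adjustment within each family named. With 3 sections a group, the comparison of MELANOMA ICI with CONTROL ICI cannot reach 0.05. Area is the number of 100 µm squares with an object or, for cells, with a cell. Imaging runs are the first 4 digits of object identifiers. Alternatives were other filters, means, run as stratum, single runs, the CONTROL section of the run as base, sections left out, replicate numbers as a block, tissue edge, square size and stain columns. The members, measures and tests were chosen with earlier results of these data known. No gene was named, since the tables hold none. Python 3.11.15, numpy 2.4.6, pandas 2.3.3 and scipy 1.17.1 were used.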

Additional observations from a re-analysis of the deposited data

How the results depend on the processing

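All differences here are on the log2 scale, MELANOMA ICI minus CONTROL ICI, and those between the 2 groups could not pass 0.05. The medians of transcripts per cell, transcripts per volume, PolyT per volume and cells per square had 1 direction under the settings tried, but not 1 size. With no filter and with the volume filter only, transcripts per cell moved from 0.33 to 0.90 and 0.98, transcripts per volume from 0.49 to 2.09 and 0.98, and cells per square from 0.63 to 0.053 and 0.024. PolyT ranged from -0.41 to -0.062 over 15 settings. Leaving out 1 section gave 0.12 to 0.50, 0.16 to 0.78, -0.34 to -0.069 and 0.43 to 0.86 for these 4. The median cell volume (-0.14) was 0.025 with no filter, 0.071 with the volume filter only, 0.074 with run as a stratum, 0.075 with that and no nearly silent squares, and -0.58 to 0.22 over sections left out. The DAPI median (0.031) was -0.20 with the stricter filter, -0.075 with at least 20 transcripts, -0.068 as means, -0.17 summed over the cell, -0.038 with run as a stratum, -0.039 with that and no nearly silent squares, and -0.048 to 0.12 over sections left out. The cause of these reversals was not tested.

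The width of transcripts per cell was 0.27 to 0.61 over 11 settings, all with a filter on transcripts, and 0.39 to 0.69 over sections left out. Other widths turned sign. Cell volume width (0.021) was -0.0032 with the volume filter only, -0.088 with run as a stratum, -0.18 in run 1 only, -0.026 relative to CONTROL, -0.087 with run as a stratum and no nearly silent squares, and -0.33 to 0.39 over sections left out. DAPI width (-0.21) and PolyT width (-0.084) were 0.11 and 0.13 summed over the cell and 0.0077 and 0.039 without run 3, with ranges of -0.37 to 0.066 and -0.16 to 0.069 over sections left out. Width of transcripts per volume ranged from -0.065 to 0.21. Width of cells per square (-0.67) was 0.017 with no filter, 0.075 with the volume filter only and 0.55 with the stricter filter, and -1.02 to -0.42 over sections left out. Widths of transcripts with no transcript filter could not be computed, as the 10th percentile is 0.

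The difference of tumour effects with and without inhibitors turned sign for volume (0.88 with no filter, 0.62 with the volume filter only), DAPI (0.042 with the volume filter only, 0.010 with run as a stratum) and cells per square (-0.23 with no filter, -0.12 with the volume filter only). Over sections left out it was 0.18 to 0.80 for transcripts per cell, -0.49 to 0.31 for volume, 0.19 to 0.81 for transcripts per volume, -0.14 to 0.080 for DAPI, -0.39 to 0.12 for PolyT and 0.57 to 1.01 for cells per square. Replicate numbers did not pair the sections: same-numbered sections correlated at -0.70, -0.42 and -0.56 over 12 measures, and they lie in the same run only for number 2. The replicate block left the difference in median transcripts at 0.33 (exact sign-flip p = 0.75, smallest possible 0.25) and changed no call.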

Other observations

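Transcript-rich cells were gathered in space to different degrees. Among squares with at least 10 cells, the median transcripts per cell of a square reached 50 in 25.4%, 1.67% and 3.88% of squares in MELANOMA ICI 1, 2 and 3. In CONTROL ICI 1, 2 and 3 this held for 0.315%, 0% and 8.11%. MELANOMA ICI 1 and CONTROL ICI 3, the sections with the curved band, were highest in their groups. The 90th over the 10th percentile of square medians was 3.72, 2.40 and 2.73 against 1.75, 1.97 and 2.77, and in both runs with both groups it was higher in MELANOMA ICI.

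How large cells relate to rich cells also differed between sections. Across cells within a section, Spearman's rho of volume and transcripts was 0.32, 0.47 and 0.54 in MELANOMA ICI 1, 2 and 3, and 0.49, 0.52 and 0.11 in CONTROL ICI 1, 2 and 3. CONTROL ICI 3 had the weakest relation of the 6, and its cells of 1600 to 3200 µm3 had a lower median (26 transcripts) than its cells of 800 to 1600 µm3 (28). In that section DAPI and transcripts per volume were related at 0.46, against 0.034 to 0.18 in the other 5. Both of the latter measures share the volume as divisor, and cells of a section are not independent samples.

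Squares that held objects but no cell made up 8.03%, 5.42% and 3.85% in MELANOMA ICI 1, 2 and 3 and 8.55%, 25.7% and 25.3% in CONTROL ICI 1, 2 and 3. The 2 high values belong to the sections with straight edges. The median square held 565.5, 427.5 and 981 transcripts against 350.5, 312.5 and 181, a 2.29-fold difference with no overlap (exact permutation p = 0.1, adjusted over 21 measures 0.21). Of these 21 section measures 10 did not overlap, or 47.6%. Squares without a cell enter this median.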
